A study of Sus scrofa with 10 samples.

Results

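The mitochondrial genome was described here across pig (Sus scrofa) testis grafts by the 37 rows of the count table that carry its locus tags, of 27376 rows in all. These are 13 protein genes, 2 rRNA genes and 22 tRNA genes, and all 37 were found by locus tag in the RefSeq annotation of Sscrofa11.1. The 4 GF grafts were made from germ cells together with testicular fibroblasts, and the 4 FO grafts from testicular fibroblasts alone. As primary cells in Matrigel, they were placed in the back skin of what the labels call a SKID mouse, where the grafts grew for 6 months. The 2 control libraries were made from testis tissue whose titles carry the code 5D. The labels do not explain that code, and grafting, age and host cannot be told apart in any comparison with control testis. The labels do not say whether libraries of a group came from separate animals or grafts, so the p-values measure the spread between these libraries, which may be technical. Host cells in the grafts may add reads, which was not tested.

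The mitochondrial genome is a small circle that is copied and transcribed inside the organelle, apart from the nucleus. Its protein genes encode core subunits of the respiratory chain and of ATP synthase, while its rRNAs and tRNAs serve the organelle's own ribosomes. In mammals both strands are transcribed as long precursors, the tRNAs are cut out from between the other genes, and most of the mRNAs then receive short poly(A) tails. Steroid-making Leydig cells, spermatocytes and muscle are known for their dependence on mitochondria. The libraries were made with QuantSeq, which counts reads at the 3' ends of polyadenylated RNA, so an RNA without a tail or a gene that lies upstream in a shared transcript is counted in part or not at all. In bulk tissue, fewer cells of a type and less RNA per cell cannot be told apart.

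Mitochondrial rows took 7.34%, 6.73%, 5.72% and 7.12% of all counts in GF 1 to GF 4, against 12.5%, 9.15%, 9.45% and 8.68% in FO 1 to FO 4, and 7.03% and 8.02% in the control libraries. The GF and FO ranges did not overlap, and FO 1 stood above the other FO libraries. Of the mitochondrial counts, protein genes made up 89.9 ± 4.37% in the GF libraries, 92.9 ± 3.04% in the FO libraries (SD, n = 4 each) and 94.4 ± 0.905% in control testis (SD, n = 2). The rRNA genes made up 10.1 ± 4.39%, 7.06 ± 3.04% and 5.59 ± 0.899% in the same order of groups. Libraries of both graft groups spread widely in this share, from 5.47% to 14.2% in GF and from 3.82% to 10.9% in FO. The tRNA rows together held at most 0.0838% of the mitochondrial counts of any library.

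**Figure D1:**
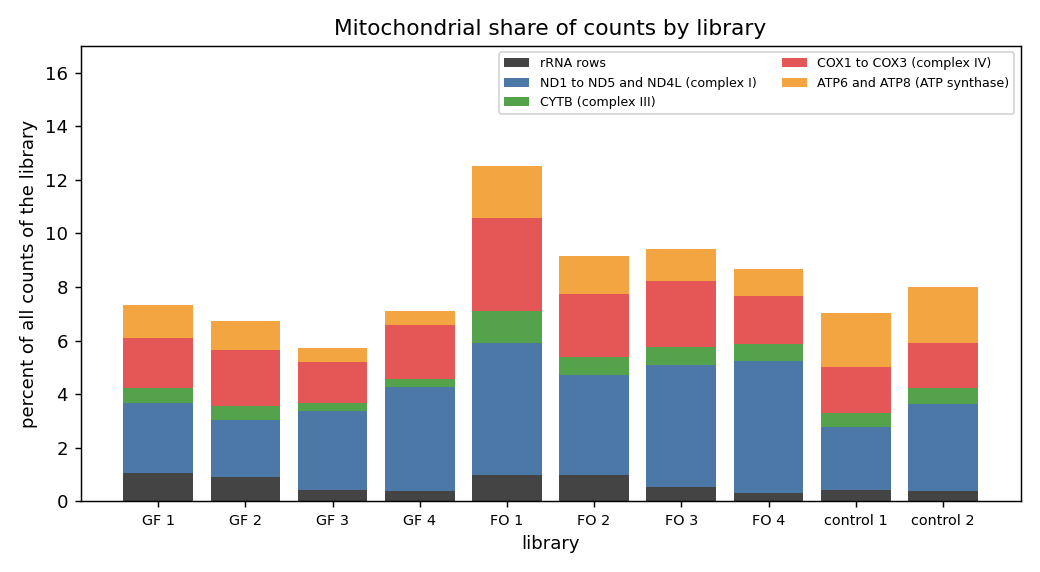
Stacked bars give the percent of all counts of each library (y axis) that fell on the mitochondrial rRNA genes and on the protein genes grouped by complex, with ND6 and the tRNA rows too low to draw. The 4 GF libraries reach 5.72% to 7.34%, all below the 4 FO libraries, which reach 8.68% to 12.5%.

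Total counts were 2915534 to 4917325 in GF, 4033509 to 4887878 in FO, and 5844944 and 7013911 in control testis, so that 3 counts, the floor used for a row at 0, equal 0.428 to 1.03 counts per 1000000 (CPM) in a library. GF 3 and GF 4 had the lowest totals and stood apart from GF 1 and GF 2 with 0.183% and 0.749% of counts on nuclear tRNA genes, against at most 0.0593% in the other libraries. Germ cell markers, all 16 in the table, summed to 661 to 3108 CPM in GF, 10.9 to 19.8 CPM in FO, and 172 to 184 CPM in control testis. The 10 Sertoli cell markers summed to 14874 to 45612 CPM, 4850.1 to 8783 CPM, and 4889 to 5458 CPM in the same order, but CLU alone held 391283 of 411434 of these counts in GF and 102303 of 120552 in FO. Of the 9 Sertoli cell markers tested 4 rose, 2 fell and 3 did not pass in GF relative to FO. Over all genes 17.6% were higher and 13% lower. Skeletal muscle markers, of which 11 of 12 were in the table, summed to 4.07 to 193 CPM in GF, 5.45 to 758 CPM in FO and 20.8 to 26.4 CPM in control testis. The highest values were those of GF 3 and FO 1, and MYL1 had no count in GF or control testis. CKM had 250 counts in control testis, against 19 in GF and 216 in FO. The 6 smooth muscle and peritubular markers summed to 1129 to 1478 CPM in GF, 745 to 800 CPM in FO and 574 to 669 CPM in control testis. In GF relative to FO 4 of them rose and 2 did not pass, against 17.6% higher over all genes. Leydig cell markers, all 8 in the table, summed to 1725 to 3357 CPM in GF, 518 to 3822 CPM in FO, and 14244 to 16838 CPM in control testis. The 7 erythroid markers in the table summed to 5.88 to 11.4 CPM in GF, 10.9 to 93.0 CPM in FO and 3210.1 to 4100.4 CPM in control testis, with SLC4A1 at 0 counts in both graft groups. HBB alone had 44251 counts in control testis, against 3 in GF and 142 in FO. HBE1 went the other way, with 45 counts in GF, 431 in FO and 3 in control testis. The 8 macrophage markers summed to 18.0 to 34.5 CPM in GF, 59.2 to 228 CPM in FO, and 519.9 to 561 CPM in control testis, and the 7 endothelial markers to 35.7 to 68.6 CPM, 118 to 204 CPM, and 253 to 256 CPM. Among the endothelial markers, EMCN had 129 counts in GF, 1172 in FO and 172 in control testis, unlike the sum. The part of these cell types in the results was not tested.

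GF and FO were compared to ask whether germ cells change the tissue that forms in the graft. Of the 37 mitochondrial rows, 16 had enough counts to be tested. All 13 protein genes were among them, and 10 of these fell in GF, while both rRNA rows and the tRNA row KEF22_t13 did not pass and no member rose. Over all 13782 genes tested, 30.5% were called, 13% lower and 17.6% higher (edgeR quasi-likelihood test, Benjamini-Hochberg adjusted p under 0.05). No member was called higher at an unadjusted p under 0.05 or by DESeq2 either. With library totals alone as the scale, the median of all genes moved to 0.13, with 2790 genes higher and 1249 lower, and 8 members were called lower. The median log2 fold change was -0.96 over the 16 tested members and -0.02 over all genes. The GF libraries all lay below the FO libraries for 10 members, which holds for 18.2% of all genes tested, and above them for no member, against 17.8% of all genes.

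COX1 encodes the catalytic subunit of cytochrome c oxidase, the last complex of the respiratory chain, and lies at MT:6511-8055. It stood at 1691, 2328, 3524 and 2409.7 CPM in GF 1 to GF 4, against 14053, 8039, 9576 and 5978 CPM in FO 1 to FO 4, and 1486 and 1865 CPM in control testis. Every GF library was below every FO library, and COX1 fell in GF (log2 fold change -1.91 ± 0.31 SE, adjusted p = 0.00108). COX2, which carries the copper site that takes electrons from cytochrome c, lies at MT:8203-8890. Its levels were 2198, 1646, 822 and 379 CPM in GF, against 7029.6, 4454, 3235 and 2490.1 CPM in FO, and 1977 and 2861 CPM in control testis. COX2 fell as well (-1.78 ± 0.48, adjusted p = 0.0155), with a spread within GF in which GF 3 and GF 4 were lowest. COX3, the remaining mitochondrial subunit of that enzyme, at MT:9800-10583, did not follow. It stood at 12981, 14516, 11247 and 17619.8 CPM in GF, against 18035, 12062, 12565 and 9768 CPM in FO, and 13060.5 and 13058 CPM in control testis. The groups overlapped and the difference did not pass (0.11 ± 0.24, adjusted p = 0.76), while without GF 4 it was -0.0092.

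**Figure D2:**
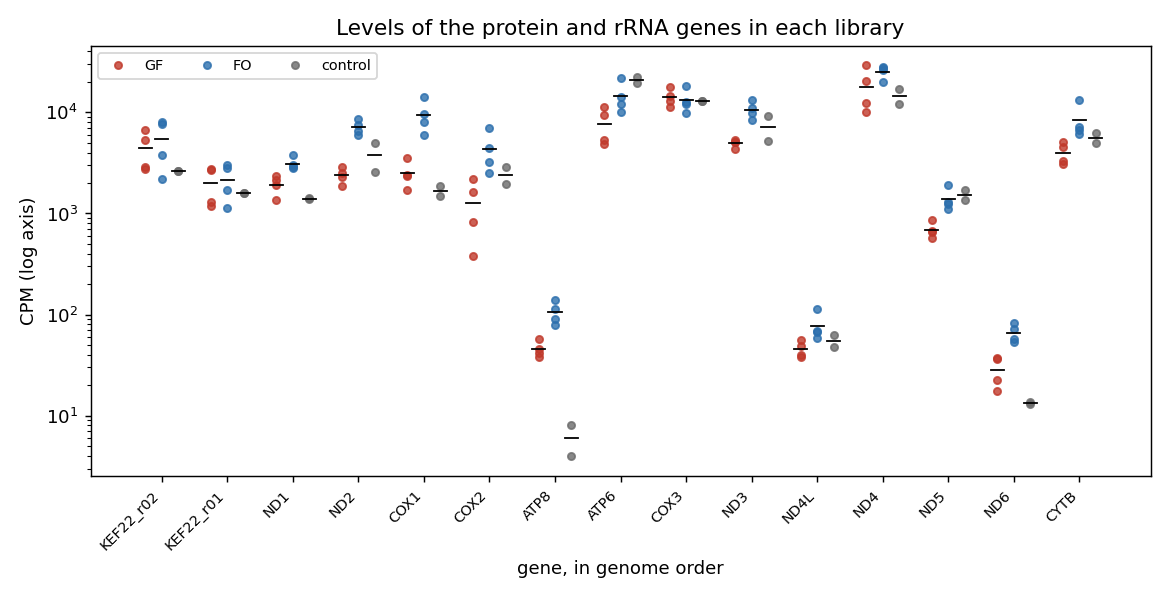
Points give CPM (log axis) of each mitochondrial protein and rRNA gene in each of the 4 GF, 4 FO and 2 control libraries, and bars give group means. The GF mean of COX1 was 2488 CPM, against 9412 CPM in FO, while that of COX3 was 14091 CPM, against 13108 CPM in FO.

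Complex I, the NADH dehydrogenase through which most electrons enter the chain, has 7 subunits of mitochondrial origin, and 5 of them fell. ND2, at MT:5087-6128, stood at 2871, 1850.3, 2289.9 and 2513 CPM in GF, against 8622, 5946, 6567 and 7509 CPM in FO, and 2551 and 4961 CPM in control testis. The groups were far apart, and ND2 had the lowest p of the members in this comparison (-1.59 ± 0.22, adjusted p = 4.84e-04). ND3, at MT:10653-10998, averaged 4956 ± 422 CPM in GF against 10633 ± 2009 CPM in FO (SD, n = 4 each), with 7207 ± 2799 CPM in control testis (SD, n = 2), and fell in GF (-1.10 ± 0.20, adjusted p = 0.00225). ND5, at MT:12935-14755, fell (-1.01 ± 0.23, adjusted p = 0.0065), with 577 to 858 CPM in GF and 1106 to 1909.7 CPM in FO. ND1, at MT:3922-4876, stood at 2341, 2132, 1366 and 1894 CPM in GF, against 3788, 2850.4, 2985 and 2817 CPM in FO. The GF libraries all lay below the FO libraries, but the call of ND1 (-0.69 ± 0.22, adjusted p = 0.0319) was lost in 9 of 20 alternative settings, 6 of them leaving out a single library.

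ND4, at MT:11359-12736, did not pass (-0.48 ± 0.31, adjusted p = 0.262), and its GF libraries split. It stood at 12444, 10082, 20434 and 29079.6 CPM in GF 1 to GF 4, against 27942, 19917, 26135 and 27218 CPM in FO, and 12007 and 17125 CPM in control testis. GF 3 lay within the FO range and GF 4 just above it, and both are the libraries with the most nuclear tRNA counts. Without them ND4 was lower in GF (-1.18 ± 0.21, adjusted p = 5.66e-04). ND4L, whose reading frame at MT:11069-11365 overlaps the start of ND4, stood at 38.0 to 56.4 CPM in GF, against 58.1 to 112 CPM in FO, and missed the threshold (-0.74 ± 0.26, adjusted p = 0.0508), although its groups did not overlap. In humans ND4L and ND4 are read from a shared mRNA whose tail lies behind ND4, so that a count at the 3' end falls mainly on ND4.

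ND6, at MT:14739-15266, is the protein gene of the light strand, transcribed against the direction of the other protein genes, and its human mRNA is known to lack a regular tail. It stood at 36.9, 36.3, 17.6 and 22.5 CPM in GF, against 82.2, 72.6, 56.8 and 53.8 CPM in FO, and 13.5 and 13.1 CPM in control testis. The 3 groups did not overlap, with GF between control testis and FO, and ND6 fell in GF relative to FO (-1.22 ± 0.29, adjusted p = 0.00822). The sources used here do not give the use of strand in counting, so reads from the antisense of a heavy strand transcript cannot be told apart from ND6, and its 3' end overlaps that of ND5.

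CYTB, at MT:15342-16481, encodes cytochrome b, the mitochondrial subunit of complex III. It stood at 5099, 4494, 3085 and 3284 CPM in GF, against 13239, 7208, 6685 and 6099 CPM in FO, and 4926 and 6210.2 CPM in control testis. FO 1 was far above the other FO libraries, and CYTB fell in GF (-1.06 ± 0.28, adjusted p = 0.0145) but missed the threshold without FO 1 (-0.73 ± 0.23, adjusted p = 0.0509). ATP6 and ATP8 encode subunits of the membrane part of ATP synthase, in humans from a shared mRNA, and their reading frames overlap at MT:9120-9800 and MT:8959-9162. ATP6 averaged 7752 ± 3129 CPM in GF, against 14602 ± 5129 CPM in FO (SD, n = 4 each). The groups overlapped, and the call of ATP6 (-0.92 ± 0.32, adjusted p = 0.0455) was lost in 8 of 20 alternative settings. ATP8 had 57.7, 42.1, 45.6 and 38.4 CPM in GF, against 139, 115, 91.0 and 79.2 CPM in FO, with no overlap, and fell (-1.21 ± 0.25, adjusted p = 0.00401) in each of the 19 settings that tested it.

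Both rRNA rows varied more among libraries of a group than between GF and FO. The row KEF22_r02, a gene of 960 bases at MT:1246-2205, stood at 6754, 5275, 2863 and 2776 CPM in GF, against 7981, 7597, 3827 and 2217 CPM in FO, and 2618 and 2633 CPM in control testis (-0.30 ± 0.41, adjusted p = 0.611 for GF over FO). The row KEF22_r01, a gene of 1571 bases at MT:2274-3844, stood at 2721, 2726, 1285 and 1191 CPM in GF, against 3013, 2790.1, 1705 and 1128 CPM in FO, and 1598 and 1577 CPM in control testis (-0.13 ± 0.36, adjusted p = 0.811). In each graft group the libraries numbered 1 and 2 were high and those numbered 3 and 4 were low in both rows. The direction of KEF22_r01 turned under 7 settings and that of KEF22_r02 under 2, none with a call.

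FO 1 had the highest level of 11 of the 13 protein genes and also the most skeletal muscle transcripts of all libraries. GF 3, next in skeletal muscle markers at 193 CPM, had the lowest mitochondrial share of all libraries, 5.72%. The part of muscle in these levels was not tested. Without FO 1 the calls fell to 6 members, as those of CYTB, ATP6, COX2 and ND1 were lost, while the calls over all genes fell to 2902 as well. Without FO 1 and GF 3 the calls of ND2, COX1, ATP8, ND3 and ND5 were kept, 5 members among 2312 genes called. Without GF 3 and GF 4, ATP6 and ND1 lost their calls, and ND4 gained one. The tRNA row KEF22_t01, not tested in the main fit, was called lower there too. It had 7 counts over all GF libraries, and that call is not used. Fibroblast markers, all 8 in the table, summed lower in GF, at 1686 to 2780.4 CPM, than in FO, at 4074 to 6078 CPM. Of these, 6 fell, 1 rose and 1 did not pass, against 13% lower and 17.6% higher over all genes. LUM had 492 counts in GF and 106 in FO, and FBLN1 had 1692 and 1229. Ribosomal protein genes took 8.06% to 10.7% of the counts in GF, against 14.8% to 16.1% in FO and 10.1% and 11.6% in control testis. With mitochondrial, haemoglobin and ribosomal protein rows left out of the scaling, 10 members again were called lower.

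**Figure D3:**
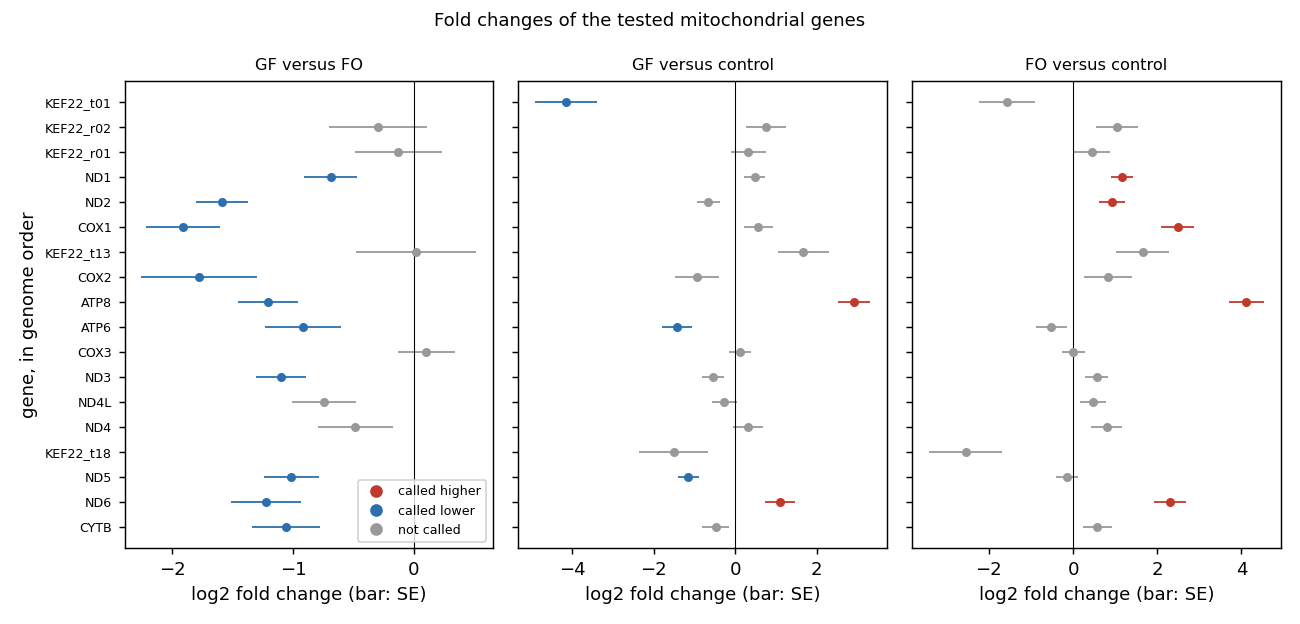
Points give the log2 fold change and bars its SE for each tested mitochondrial gene, in genome order, with 1 panel for each comparison and colours for the edgeR call. In GF versus FO 10 genes were called lower and none higher, while in the comparisons with control testis called genes lie on both sides for GF and on the higher side for FO. The row KEF22_t20, at 0 counts in control testis, is not drawn, and KEF22_t18 entered the test through control testis alone. KEF22_t01 entered it through FO and control testis and no GF library.

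To set the members against each other without the change of the whole, each row was taken as a percent of the mitochondrial counts of its library. COX1 was 2.54%, 3.90%, 6.12% and 3.32% of them in GF, against 9.96%, 8.45%, 9.89% and 6.82% in FO, and 2.19% and 2.20% in control testis. ND2 was 3.10% to 4.32% in GF, against 6.11% to 8.57% in FO, and ND3 was 7.28% to 8.74% in GF, against 8.88% to 12.6% in FO. COX1, ND2, ND3 and ATP8 were thus lower in every GF library than in every FO library also within the mitochondrial counts. The other members called lower, ND1, COX2, ATP6, ND5, ND6 and CYTB, overlapped between GF and FO by this measure. The mean of ND1 was 3.02% in GF and 2.99% in FO. COX3 was higher by the same measure, with 19.5%, 24.3%, 19.5% and 24.3% in GF, against 12.8%, 12.7%, 12.97% and 11.15% in FO, and 19.3% and 15.4% in control testis. For each 100 counts of COX3 there were 13.02 to 31.3 counts of COX1 in GF, 61.2 to 77.9 in FO, and 11.4 and 14.3 in control testis. The GF range reached down to that of control testis, and both lay below FO. ND4 was 18.7% and 16.9% in GF 1 and GF 2 and 35.5% and 40.1% in GF 3 and GF 4, against 19.8% to 31.1% in FO. These percentages are parts of a whole, so a rise of any gene lowers the others, and they were given no test.

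**Figure D4:**
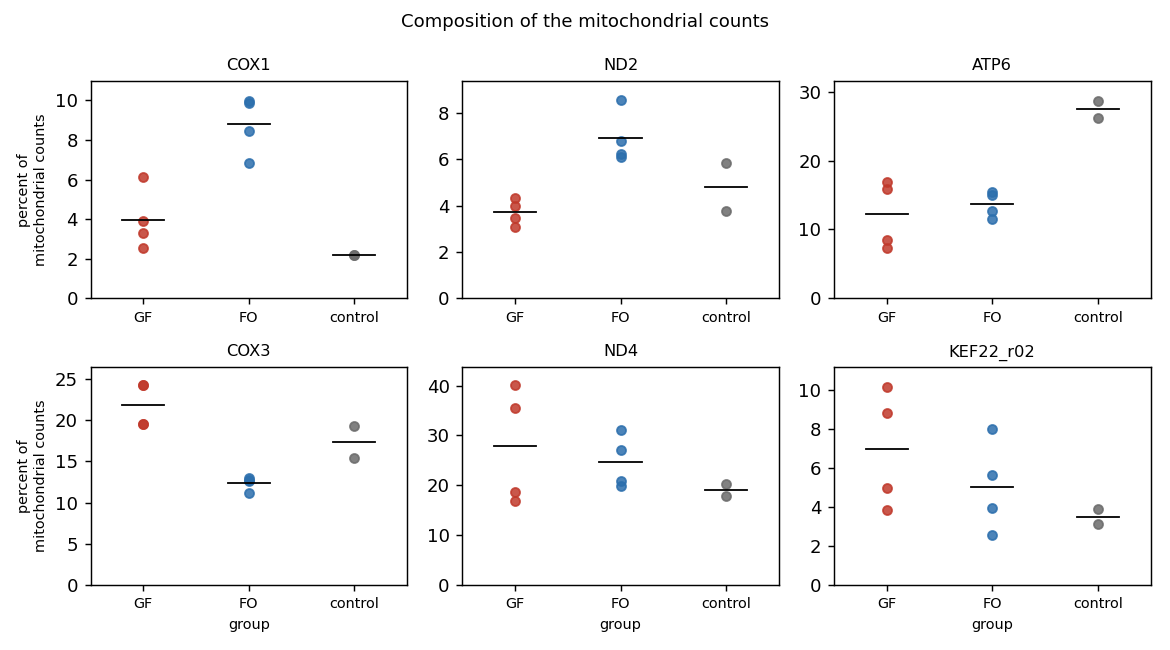
Points give the percent of the mitochondrial counts (y axes from 0) on COX1, ND2, ATP6, COX3, ND4 and KEF22_r02 in each GF, FO and control library, and bars give group means. COX1 and ND2 lie lower in GF than in FO, COX3 lies higher, and ATP6 is highest in the control libraries at 28.7% and 26.2%.

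The comparisons of GF and of FO with control testis share the 2 control libraries, and in each 19 members were tested among 15877 genes. Of the 13 protein genes 2 rose, 2 fell and 9 did not pass in GF, where 25.8% of all genes tested were called, 14.0% higher and 11.8% lower. In FO 5 protein genes rose and 8 did not pass, where 18.7% of all genes were called, 8.12% higher and 10.6% lower. The median over the protein genes was -0.26 in GF and 0.80 in FO, against 0.03 and -0.04 over all genes. In every GF library 2 protein genes were higher and 2 lower than in both control libraries, as held for 21.9% and 25.3% of all genes. In FO 6 protein genes were higher and 0 lower, against 26.7% and 32.0% of all genes, and 0 were lower at an unadjusted edgeR p under 0.05. The tRNA rows KEF22_t18 and KEF22_t20 passed the filter on low counts only through the group where they are high, control testis for KEF22_t18 and GF for KEF22_t20. They are described below by their counts, and no call of them is used. KEF22_t01 passed it through FO and control testis but no GF library, so its call in GF is not used either.

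ATP8 and ND6 rose in both graft groups relative to control testis. ATP8, whose graft values are given above, had only 24 and 54 counts in the control libraries, or 3.96 and 8.16 CPM. It rose in GF (2.91 ± 0.39, adjusted p = 2.38e-04) and in FO (4.12 ± 0.41, adjusted p = 3.51e-05). Its neighbour ATP6 did not rise. The levels of ATP6 were 11256, 9519, 4915 and 5317 CPM in GF, 21845, 14286, 12220.1 and 10056 CPM in FO, with 19439.7 and 22250.1 CPM in control testis. ATP6 fell in GF (-1.43 ± 0.36, adjusted p = 0.0109), a call lost without either control library (adjusted p = 0.0544 and 0.0976), and did not pass in FO (-0.51 ± 0.36, adjusted p = 0.366). For each 100 counts of ATP6 there were 0.442 to 0.927 counts of ATP8 in GF, 0.638 to 0.804 in FO, and 0.0204 and 0.0367 in control testis. The graft libraries all lay above both control libraries in that ratio.

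ND6 rose in FO (2.31 ± 0.38, adjusted p = 0.00105) and in GF (1.09 ± 0.36, adjusted p = 0.0392), and the GF call was lost in 10 of 22 alternative settings. For each 100 counts of ND5, with which it shares its 3' border, there were 3.05 to 5.47 counts of ND6 in GF, 4.31 to 5.55 in FO, and 0.993 and 0.77 in control testis. ND5 itself fell in GF (-1.15 ± 0.26, adjusted p = 0.00608), with a call lost without control 2 (adjusted p = 0.0996), and did not pass in FO (-0.14 ± 0.27, adjusted p = 0.765).

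COX1 rose in FO relative to control testis (2.49 ± 0.39, adjusted p = 7.50e-04) in each of the 22 settings run, and in GF it stood at 0.57 ± 0.35 (adjusted p = 0.248). ND1 (1.16 ± 0.27, adjusted p = 0.00877) and ND2 (0.93 ± 0.30, adjusted p = 0.0462) rose in FO too. The call of ND1 was lost without either control library (adjusted p = 0.108 and 0.109), and that of ND2 in 7 of 22 settings. COX2, COX3, ND3, ND4, ND4L and CYTB passed in neither comparison with control testis, with log2 fold changes of -0.94 to 0.31 in GF and 0.01 to 0.83 in FO. In FO, ND4 and ND3 passed without GF 3 and GF 4 in the fit, ND4 also with only the 6 libraries compared, and COX2 with the replicate block (adjusted p = 0.0163).

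Of the 22 tRNA rows, 8 had no count in any library, and a row at 0 allows up to the floor of 3 counts given above. That floor covers counting error only. Of the other 14, 8 had 2 to 24 counts over all 10 libraries. KEF22_t06, at MT:5017-5086 just before ND2, had 3 counts over the GF libraries, 10 over FO and 33 over control testis, and KEF22_t12, at MT:8059-8129 just behind COX1, had 16, 12 and 3 counts, and both were removed by the filter on low counts. With no filter KEF22_t06 was called lower in GF than in control testis, but it rests on 3 counts in GF, and that call is not used. The files name these rows by locus tag alone, so no amino acid is given here. The row with the most counts was KEF22_t13, at MT:8135-8202 between COX1 and COX2, with 33, 89, 67 and 124 counts in GF, 100, 54, 147 and 82 counts in FO, and 42 and 46 counts in control testis. Scaled to depth, it stood at 7.07, 16.1, 23.1 and 42.9 CPM in GF, against 27.9, 11.7, 30.8 and 17.4 CPM in FO, and both graft groups lay above the 6.92 and 6.95 CPM of control testis. It did not pass in GF (1.67 ± 0.63, adjusted p = 0.0662) or in FO (1.66 ± 0.63, adjusted p = 0.0823), nor between GF and FO (0.02 ± 0.50, adjusted p = 0.981). In FO it passed with DESeq2 (adjusted p = 0.0348), as it did in GF (adjusted p = 0.0247).

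KEF22_t01, at MT:1176-1245 just before the rRNA genes, had 1, 3, 2 and 1 counts in GF, 18, 9, 9 and 11 counts in FO, and 48 and 57 counts in control testis. The 3 groups did not overlap. It passed the filter through 2 FO and 2 control libraries and no GF library. Its call as lower in GF than in control testis (-4.15 ± 0.76, adjusted p = 0.0018) is therefore not used as support. In FO it did not pass relative to control testis (-1.57 ± 0.67, adjusted p = 0.125). KEF22_t20, at MT:15267-15335 between ND6 and CYTB, had 6, 10, 8 and 37 counts in GF, 4, 3, 0 and 3 counts in FO and none in control testis. Its pooled GF level was 16.1-fold the floor of 3 counts over both control libraries, and 7.74-fold without GF 4. Without control 1 and without control 2 it was 8.41-fold and 7.71-fold that floor. These folds leave out counting error and spread in GF, and they are no support for a rise. GF 4, which held most of these counts, also had the highest share of nuclear tRNA genes, and its part in the result was not tested. KEF22_t18, at MT:12806-12864 behind ND4, had 2, 7, 6 and 3 counts in GF, 1, 2, 3 and 4 counts in FO, and 20 and 23 counts in control testis, with every graft library below both control libraries.

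Nuclear genes supply the polymerase, nucleases, ribosome and chaperones that the mitochondrial genome needs, and their lists were set beside it. Their counts in GF relative to FO are to be read against all genes, of which 17.6% were higher and 13% lower. Among 15 tested regulators of mitochondrial biogenesis, 2 fell (13.3%) and 13 did not pass, with a median log2 fold change of -0.35. PPARGC1A, a coactivator known to drive mitochondrial biogenesis, stood at 4.72, 5.96, 7.25 and 1.73 CPM in GF, against 23.97, 27.8, 18.0 and 33.9 CPM in FO, and 7.25 and 6.04 CPM in control testis. It fell in GF relative to FO (-2.38 ± 0.43, adjusted p = 0.00196) in each of 20 settings, and rose in FO relative to control testis (1.96 ± 0.52, adjusted p = 0.0179), a call lost in 3 of 22 settings. GABPB2, a partner of the transcription factor GABPA, fell in GF relative to FO (-1.10 ± 0.22, adjusted p = 0.00365) and relative to control testis (-1.41 ± 0.24, adjusted p = 0.00116).

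Of 40 tested genes of mitochondrial transcription and RNA processing, 6 rose (15%) and 2 fell (5%) in GF relative to FO, with a median of 0.11. SLIRP, which with LRPPRC binds and stabilises mitochondrial mRNAs, fell, with 116, 112, 72.2 and 50.1 CPM in GF, against 268, 242, 139 and 159 CPM in FO (-1.20 ± 0.31, adjusted p = 0.0129). Its call was lost without FO 1 (adjusted p = 0.0528) and without FO 1 and GF 3 (adjusted p = 0.102), and it stood at -0.83 without GF 3 and GF 4 (adjusted p = 0.0189). PDE12, a phosphodiesterase that removes adenosines from mitochondrial RNA tails, rose, with 53.2 to 104 CPM in GF and 29.3 to 37.4 CPM in FO (1.12 ± 0.27, adjusted p = 0.00831). TFB1M, which methylates the small mitochondrial rRNA, and TBRG4, a protein of the FASTK family of mitochondrial RNA-binding proteins, rose by 1.34 and 1.68 on the log2 scale (adjusted p = 0.00579 and 0.0046). Of 21 tested genes of mitochondrial DNA maintenance, 3 rose (14.3%) and 18 did not pass, with a median of 0.37. Among those that rose were TWNK, the mitochondrial DNA helicase (1.29 ± 0.31, adjusted p = 0.00826), and TOP3A, a topoisomerase that also works in the nucleus (1.61 ± 0.39, adjusted p = 0.00929). The sizes were lower without GF 3 and GF 4, where TWNK stood at 0.69 (adjusted p = 0.018) and TOP3A at 0.75 (adjusted p = 0.0431), while TBRG4 stood at 0.97 (adjusted p = 0.00755), TFB1M at 0.85 (adjusted p = 0.00974) and PDE12 at 0.75 (adjusted p = 0.0113). Without FO 1 and GF 3, TWNK, TOP3A and PDE12 lost their calls (adjusted p = 0.0711, 0.0772 and 0.0512).

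**Figure D5:**
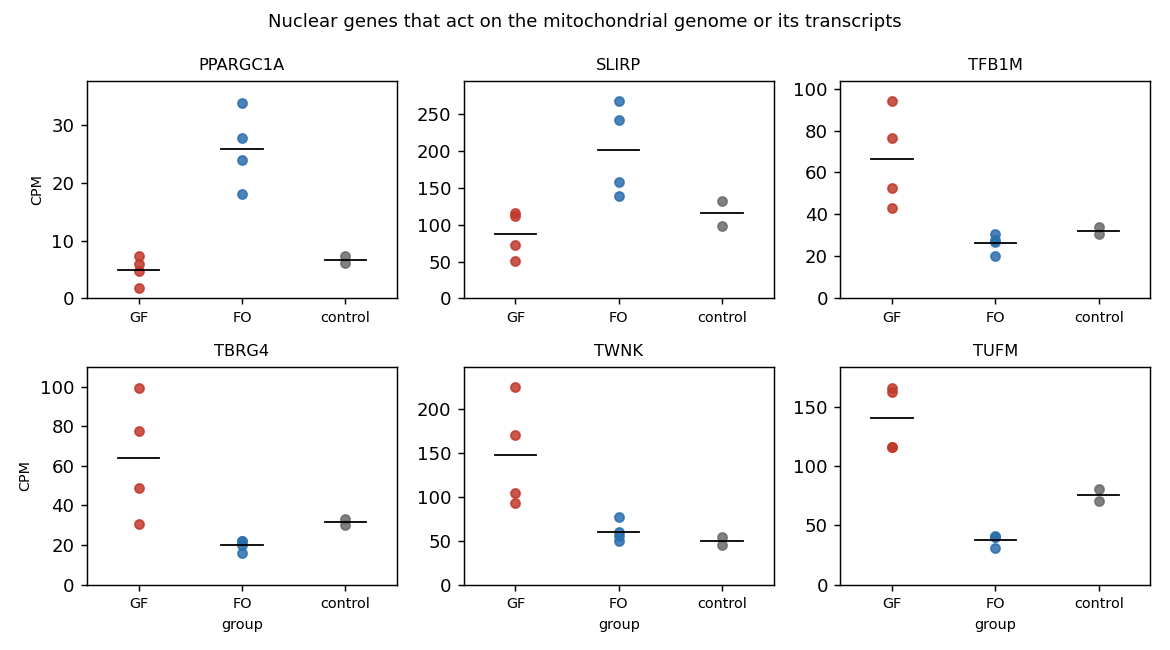
Points give CPM (y axes from 0) of 6 nuclear genes in each GF, FO and control library, and bars give group means. PPARGC1A and SLIRP lie lower in GF than in FO, while TFB1M, TBRG4, TWNK and TUFM lie higher.

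Among genes of mitochondrial protein synthesis most did not pass in GF relative to FO, and the shares that rose lay near the 17.6% of all genes. Of 76 tested mitochondrial ribosomal proteins 12 rose (15.8%) and 3 fell (3.95%, median 0.10). Of 19 translation factors 4 rose (21.1%) and 2 fell (10.5%, median -0.08), and of 16 genes for charging the mitochondrial tRNAs 3 rose (18.75%) and 13 did not pass (median 0.20). TUFM, the mitochondrial elongation factor, stood at 116, 116, 166 and 162 CPM in GF, against 30.7, 40.0, 40.5 and 40.9 CPM in FO, and 70.2 and 80.5 CPM in control testis (1.88 ± 0.24, adjusted p = 3.17e-04 for GF over FO). CARS2, which charges the mitochondrial tRNA for cysteine, rose (2.44 ± 0.41, adjusted p = 0.00139), and MTRF1L, a release factor, fell (-2.06 ± 0.45, adjusted p = 0.00549). MRPL12, of the large ribosomal subunit, rose (2.79 ± 0.60, adjusted p = 0.00512), with 18.0 and 29.6 CPM in GF 1 and GF 2 but 123 and 138 CPM in GF 3 and GF 4, and 8.05 to 16.4 CPM in FO. Without GF 3 and GF 4 its log2 change was 1.08 (adjusted p = 0.0223), and without FO 1 and GF 3 its call was lost (adjusted p = 0.0543).

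Of 67 tested subunits of the respiratory chain encoded in the nucleus, 10 rose (14.9%) and 9 fell (13.4%) in GF relative to FO, near the shares over all genes, with a median of -0.26. NDUFA10 (2.50 ± 0.45, adjusted p = 0.00191) and NDUFV3 (2.07 ± 0.38, adjusted p = 0.0021) of complex I rose, with values of 1.33 and 1.15 without GF 3 and GF 4, and COX7C of cytochrome c oxidase fell (-1.55 ± 0.28, adjusted p = 0.00196). Relative to control testis 26 of 69 tested genes of this list fell in GF (37.7%, against 11.8% of all genes) and the other 43 did not pass. In FO 20 fell (29.0%, against 10.6% of all genes) and 1 rose, with medians of -0.77 in GF and -0.58 in FO. Genes of the outer membrane, import machinery and matrix, of which 26 were tested, gave 2 rises (7.69%) in GF relative to FO, and 24 did not pass. Against control testis they gave 1 rise and 12 falls in GF (46.2% lower), and 11 falls in FO (42.3% lower) with 15 that did not pass.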

How the data were processed

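PolyA RNA of 10 libraries (4 GF, 4 FO, 2 control) had been read with QuantSeq after Trizol extraction, per the labels. The values the authors deposited are raw counts, whole numbers for each named gene, and columns were matched to samples by title, with those named F taken as FO. The submitters' processing notes name Sscrofa11.1 and DESeq2 1.42.0 without a role, and the sources used here give no aligner, counting program or use of strand. The labels of the control libraries repeat the grafts' growth and cell type fields. The 37 members were the rows with mitochondrial locus tags, and members and gene lists were chosen with earlier results of these data known. Tests were edgeR 4.0.16 quasi-likelihood F tests (R 4.3.3, limma 3.58.1) with TMM factors, rows kept by filterByExpr at a minimum count of 10, and Benjamini-Hochberg adjustment over all genes, with a call at an adjusted p under 0.05. GF against FO was fitted on the 8 graft libraries and the control comparisons on all 10. SE is the log2 fold change over the square root of F. CPM are counts per 1e+06 of the TMM effective library size of 10 libraries, and library totals ran from 2915534 to 7013911. Of each nuclear list the 4 tested genes with the lowest p in GF against FO could be named. The scripts were tested on simulated data. Alternatives covered DESeq2 1.42.0, other scalings and filters, left-out libraries, a replicate block and summed neighbouring genes, and 2 scalings were added after seeing the data. No sequence was used.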

Additional observations from a re-analysis of the deposited data

Results flagged for a closer look

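Of 84 sets of 4 values tested for a single sample far from the others, 5 stood out, and chance alone gives about 1 in 20. KEF22_t20 was highest in GF 4 (12.8 CPM), while the other GF libraries had 1.29 to 2.76 CPM. CYTB stood at 13239 CPM in FO 1, against 6099 to 7208 CPM in the other FO libraries. KEF22_t01 stood at 5.02 CPM in FO 1, against 1.89 to 2.33 CPM in the other FO libraries. COX3 made up 11.15% of the mitochondrial counts of FO 4, against 12.7% to 12.97% in the other FO libraries. KEF22_t20 made up 0% of the mitochondrial counts of FO 3, with no count, against 6.86e-04% to 7.91e-04% in the other FO libraries, each of which rests on 3 or 4 counts.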

How the results depend on the processing

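The direction of every member called in GF against FO was the same in all settings run. Leaving out 1 library at a time gave 6 to 11 members called in that comparison, 6 to 11 of them lower and 0 to 0 higher, with 6 without FO 1. Calls over all genes moved too, with 2902 without FO 1 and 4842 without GF 1, where 11 members were called. Without FO 1 and GF 3, 5 were called, all 5 lower, among 2312 genes called. With all 10 libraries in the fit the count called higher was 1, KEF22_t20, which passed the filter only through GF, where it is high, and is no support. ND4L and KEF22_t01 were gained there as lower, and KEF22_t01 passed the filter through no GF library. In GF against control testis the same exercise gave 2 to 6 called, 1 to 3 lower and 1 to 3 higher, with 3 called without control 1 and 2 without control 2. In FO against control testis it gave 3 to 7 called, 0 to 1 lower and 3 to 6 higher. There, without GF 3 and GF 4, 10 were called, 2 lower and 8 higher, with only the 6 libraries compared 9 were called, 2 lower, and DESeq2 called 1 lower. Counts against control testis include the tRNA rows KEF22_t01, KEF22_t18 and KEF22_t20, and the fall called by DESeq2 was KEF22_t18, which passed the filter only through control testis. The calls over all genes in these settings are not set beside the counts against control testis. A gain or loss there is therefore no result about the members. The causes were not tested. With ribosomal protein rows out of the denominator, the mitochondrial share was 11.8% in FO and 8.44% in control testis, and leaving out 1 library gave 6.52% to 7.06% in GF, 9.09% to 10.4% in FO and 7.03% to 8.02% in control testis.

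Equal replicate numbers of GF and FO did not pair the libraries by the rule used, since their correlations were 0.0549 to 0.218 and not all over 0.1, and 4 of 8 libraries correlated best with their own number. GF 1 and GF 2 correlated with FO 1 and FO 2 at 0.0549 to 0.218. GF 3 and GF 4 correlated with FO 3 and FO 4 at 0.0322 to 0.108. Between these sets all values were negative, from -0.148 to -0.0023. The main tests have no term for such a split, and its part in the results was not tested. With the replicate block 11 members were called in GF against FO, among 4335 genes called, and in GF against control testis 8 were called, 5 of them higher, gaining both rRNA rows. In FO against control testis the block lost ND2 and gained COX2 and both rRNA rows. The calls over all genes with the block are not given for control testis, so these gains are no result about the members.

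Only values that passed no test changed direction. In GF against FO, COX3 ranged from -0.0092 to 0.31 over the left-out libraries. KEF22_r01 ranged from -0.33 to 0.090 and stood at 0.070 with total counts alone, 0.33 without GF 3 and GF 4 and 0.23 without FO 1 and GF 3. KEF22_r02 stood at 0.15 and 0.11 in those last settings. KEF22_t13 ranged from -0.50 to 0.31 and stood at -0.014 with no filter, -0.91 without GF 3 and GF 4 and -0.12 with the replicate block. In GF against control testis, ND4 ranged from -0.018 to 0.56 and stood at -0.38 without GF 3 and GF 4 and -0.13 with the replicate block, while COX3 ranged from -0.012 to 0.18. In FO against control testis, ND5 ranged from -0.33 to 0.017 and stood at 0.0026 with the replicate block. COX3 there ranged from -0.19 to 0.12 and stood at -0.063 with total counts alone, -0.019 with no filter and -0.15 without FO 1 and GF 3. Control testis had only 2 libraries, and most tRNA rows had too few counts to be tested.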
